A study of Rattus norvegicus with 13 samples.

Results

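The genes described here are 7 genes that mark oligodendrocyte precursor cells (OPCs) and the cells that descend from them: Pdgfra, Cspg4, Gpr17, Olig1, Olig2, Sox10 and Myrf. They were taken by gene symbol from a table of 14855 genes, in which each of the 7 had 1 row. The table compares the medial preoptic area (MPOA), a hypothalamic region, between adolescent male SAS Sprague-Dawley rats of a pair of groups. In the Oprm1 shRNA group (5 samples) an AAV5 vector carried GFP and a short hairpin RNA against Oprm1, the mu opioid receptor gene, and in the scrambled shRNA group (7 samples) the same kind of vector carried a scrambled hairpin. In both groups the hairpin stood under the U6 promoter, the vector went into both sides of the MPOA on postnatal day 21, at 0.5 uL per side, and the dissected region was sequenced as bulk tissue. A further Oprm1 shRNA sample, number 6, is marked by its label as an outlier that was kept out.

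Oligodendrocytes wrap axons in myelin, and new ones arise throughout life from OPCs, a dividing glial cell type spread through grey and white matter. OPCs carry the receptor Pdgfra and the proteoglycan Cspg4 (NG2) on their surface, pass through a committed stage that expresses the receptor Gpr17, and then switch on Myrf, which drives the myelin genes. Olig1, Olig2 and Sox10 are transcription factors that run through much of the lineage and hold its identity. Myelination of the forebrain is still under way in adolescent rodents, so precursors and maturing cells are both found in such tissue.

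None of the 7 genes passed the test of a difference between the groups. By the edgeR likelihood ratio test of the authors' deposited table, 0 of 7 had an adjusted p under 0.05, against 3 of all 14855 genes (0.0202%). At an unadjusted p under 0.05 the count was also 0 of 7, beside 4.39% of all genes of the authors' deposited table. The log2 fold changes of the authors' deposited table, given throughout as Oprm1 shRNA over scrambled shRNA, were negative for 4 genes (Pdgfra, Cspg4, Sox10 and Myrf) and positive for 3 (Gpr17, Olig1 and Olig2). Their median was −0.07, while the authors' deposited table had a median of −0.02 and 51.6% negative values over all genes.

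Values per sample, and so the spread of each group, were not analysed here, and neither was the depth of each library. The error of each fold change was instead derived from the authors' likelihood ratio statistic, by dividing the size of the log2 value by the root of the statistic, and gave an approximate 95% interval of the fold. The samples are not stated to come from separate animals, and the authors' p-values then measure only the spread between these samples, which may be technical. In bulk tissue, fewer cells of a type and less RNA per cell cannot be told apart. Oprm1 itself had a fold of 0.670 with an interval of 0.0715 to 6.27 at 7.32 CPM (reads per gene scaled by library size) from the authors' deposited table, too wide to check the group labels.

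**Figure D1:**
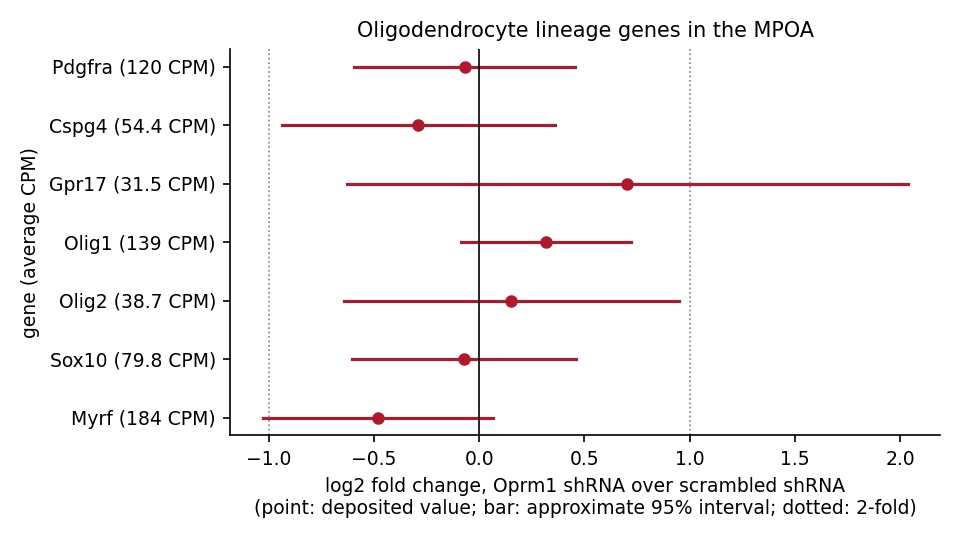
Log2 fold change, Oprm1 shRNA over scrambled shRNA, of the 7 lineage genes (points, the authors' deposited values) with approximate 95% intervals (bars); dotted lines mark 2-fold either way, and average CPM stands beside each name. Every bar crosses 0, the bar of Gpr17 is the widest, and those of Myrf and Olig1 reach least far across 0.

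The first of the OPC surface markers was Pdgfra (ENSRNOG00000002244), the receptor through which platelet-derived growth factor A keeps OPCs dividing. The authors' deposited table gave Pdgfra a log2 fold change of −0.07, at an average of 120.1 CPM over the libraries. This is a fold of 0.953, with an interval of 0.661 to 1.37 (p = 0.796, adjusted p = 0.9997 by the authors' edgeR test). The value lay close to no difference. The ligand gene Pdgfa, picked for that role with its values known, stood at 0.55 on the log2 scale (unadjusted p = 0.300) in the authors' deposited table.

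Cspg4 (ENSRNOG00000017208), the NG2 proteoglycan found on OPCs and also on pericytes, stood at a log2 fold change of −0.29 and an average of 54.4 CPM in the authors' deposited table. The fold was 0.818, with an interval of 0.522 to 1.28 (p = 0.382, adjusted p = 0.9997 by the authors' edgeR test). In the RefSeq annotation of the assembly GRCr8, which is not the authors' build, Cspg4 overlaps the coding gene Cimap1c and a transfer RNA gene. Whether the libraries are stranded is not given in the labels, so reads of overlapping genes may not be fully separable. Pdgfra and Cspg4 mark the same precursors, and both values lay below 0 with intervals that overlap over most of their length. A difference between the fold changes of these genes was not tested.

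Both genes are also expressed by cells of vessels and meninges, Cspg4 by pericytes and Pdgfra by fibroblasts. Of 11 measured pericyte and mural cell markers, 6 were higher, 5 were lower and 0 passed the adjusted threshold in the authors' deposited table, where their median log2 fold change was 0.09. The members of smallest p there were Tagln, a smooth muscle actin-binding protein, at 1.33 (unadjusted p = 0.0538), and Rgs5, a regulator of G protein signalling in pericytes, at 1.17 (unadjusted p = 0.197), both as log2 values of the authors' deposited table. Of 13 fibroblast markers, 8 were higher, 5 were lower and 0 passed the adjusted threshold in the authors' deposited table, where their median log2 fold change was 0.16. They were led by the collagen genes Col1a2 at 3.07 (unadjusted p = 0.0472) and Col1a1 at 0.66 (unadjusted p = 0.283), as log2 values of the authors' deposited table. Few reads stood behind Col1a2, which averaged 7.99 CPM with a fold interval of 1.03 to 68.4. The part of these cells in the values of Pdgfra and Cspg4 was not tested.

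Gpr17 (ENSRNOG00000025745) is a G protein-coupled receptor that appears for a short time in committed precursors and holds back their maturation. In the authors' deposited table it had the highest log2 fold change of the 7, at 0.70 and the fewest reads, at an average of 31.5 CPM. The fold was 1.63, with an interval of 0.646 to 4.10 (p = 0.302, adjusted p = 0.9997 by the authors' edgeR test). This value is also the least certain of the 7. The implied standard error of Gpr17 on the log2 scale was 0.680, which is 3.30 times that of Olig1 and larger than that of 80.8% of the 2560 genes within 0.5 log2 CPM of Gpr17. Gpr17 overlaps Lims2 in the GRCr8 annotation, so the same limit on strand holds for this pair. Lims2 stood at 0.01 on the log2 scale and 7.05 CPM in the authors' deposited table.

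The transcription factors of the lineage lay on both sides of 0. Olig1 (ENSRNOG00000028648), a basic helix-loop-helix factor needed for maturation and for repair of myelin, stood at a log2 fold change of 0.32 and an average of 138.9 CPM in the authors' deposited table. The fold was 1.25, with an interval of 0.941 to 1.65 (p = 0.124, adjusted p = 0.9997 by the authors' edgeR test), the narrowest of the 7 on the log scale. For Olig2 (ENSRNOG00000028658), the related factor that sets up the lineage in the embryo, the authors' deposited table gave a log2 fold change of 0.15 and an average of 38.7 CPM. Its fold was 1.11, with an interval of 0.640 to 1.93 (p = 0.707, adjusted p = 0.9997 by the authors' edgeR test).

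Olig1 and Olig2 lie next to each other on chromosome 11 in the GRCr8 annotation, with no protein-coding gene between them. Both values were positive, and the interval of Olig1 lies inside that of Olig2. The next coding gene beyond Olig1, the interferon receptor gene Ifnar2, stood at 0.75 on the log2 scale (unadjusted p = 0.391) in the authors' deposited table.

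Sox10 (ENSRNOG00000011305), a high-mobility-group factor that works with Olig2 and turns on Myrf, stood at a log2 fold change of −0.07 and an average of 79.8 CPM in the authors' deposited table. The fold was 0.951, with an interval of 0.658 to 1.37 (p = 0.790, adjusted p = 0.9997 by the authors' edgeR test). Sox10 and Pdgfra therefore had nearly the same fold and nearly the same interval.

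Myrf (ENSRNOG00000028274) encodes a membrane-bound factor that cuts itself free and activates myelin genes in the nucleus. The authors' deposited table gave Myrf a log2 fold change of −0.48, at an average of 183.9 CPM. The fold was 0.716, with an interval of 0.490 to 1.05 (p = 0.0836, adjusted p = 0.9997 by the authors' edgeR test). This was the lowest value and the smallest p of the 7, at rank 1043 of 14855 by p in the authors' deposited table. Among the 999 genes within 0.5 log2 CPM of Myrf, 98.6% had a smaller log2 fold change in absolute size. The implied standard error of Myrf, 0.279, was also larger than that of 94.1% of them, and their median was 0.224. Myrf thus stood towards the upper end of the genes of its abundance both in the size of its fold change and in its error.

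**Figure D2:**
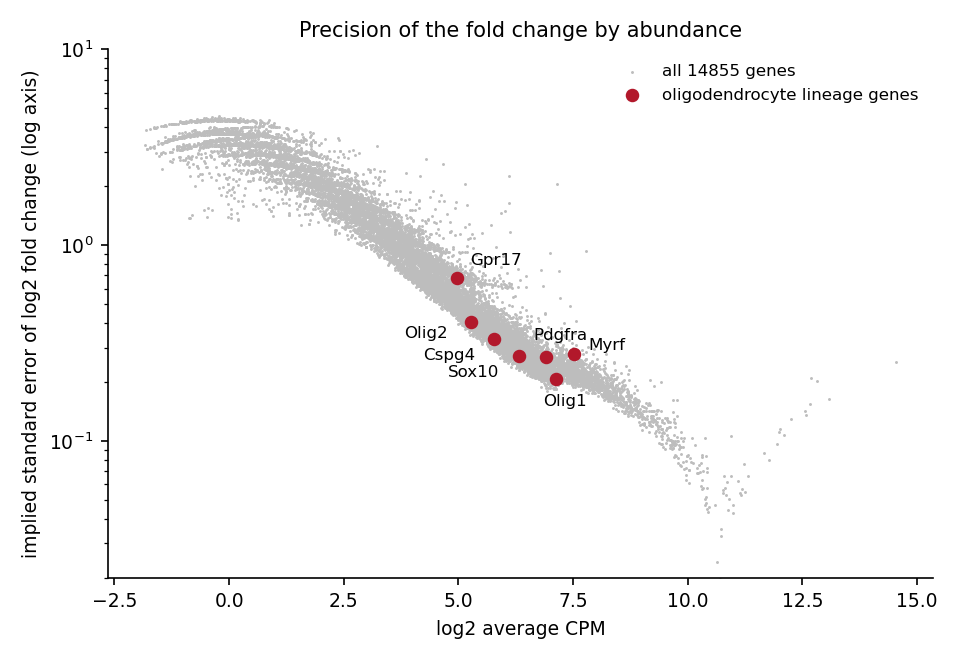
Implied standard error of the log2 fold change (log axis) against log2 average CPM for all 14855 genes (grey) and the 7 lineage genes (red). The error falls with abundance over most of the range, Gpr17 and Myrf sit on the upper side of the cloud at their abundance, and Olig1 sits near its lower edge.

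The precision of the table set what could be seen for each gene. For the approximate 95% interval to leave 1, a fold of 1.32 was needed for Olig1, 1.44 for Pdgfra, 1.45 for Sox10, 1.46 for Myrf, 1.57 for Cspg4, 1.74 for Olig2 and 2.52 for Gpr17. To pass the adjusted threshold as a further gene, an unadjusted p of 1.35e-05 was needed, which takes a fold of 1.86 for Olig1 and of 7.79 for Gpr17 at their implied errors. The intervals of 5 genes (Pdgfra, Cspg4, Olig1, Olig2 and Sox10) lay inside 2-fold either way, while Gpr17 reached beyond it on the higher side and Myrf on the lower side. With the quantile of Student's distribution in place of the normal one, 3 intervals did so, those of Pdgfra, Olig1 and Sox10. None of the 7 intervals (0) lay inside 1.5-fold, so that each still held a difference of that size in at least 1 direction.

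The myelin genes that lie downstream of Myrf had values near 0. Of 19 mature myelin genes, 5 were higher and 14 lower, 0 passed the adjusted threshold and 0 had an unadjusted p under 0.05 in the authors' deposited table. Their median log2 fold change was −0.07. The gene of myelin basic protein, Mbp, stood at −0.01 on the log2 scale and 6604 CPM in the authors' deposited table. Its fold interval ran between 0.746 and 1.32. Mbp was chosen with its values known.

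The myelin genes of smallest p were Hapln2, a link protein at nodes of Ranvier, at 1.13 (unadjusted p = 0.165), and Ugt8, the enzyme that makes galactocerebroside, at −0.26 (unadjusted p = 0.305), both as log2 values of the authors' deposited table. Few reads stood behind Hapln2, which averaged 12.5 CPM with a fold interval of 0.724 to 6.60. Of the 19 genes, 16 averaged a log2 CPM of 4 or more. Of these 3 were higher and 13 lower, beside 50.8% lower among all 8538 genes of that abundance in the authors' deposited table, and 13 of the 16 intervals lay inside 2-fold. None of the 16 (0) had a log2 fold change below that of Myrf. The intervals of Myrf and Mbp overlap, and a difference between Myrf and the myelin genes was not tested.

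**Figure D3:**
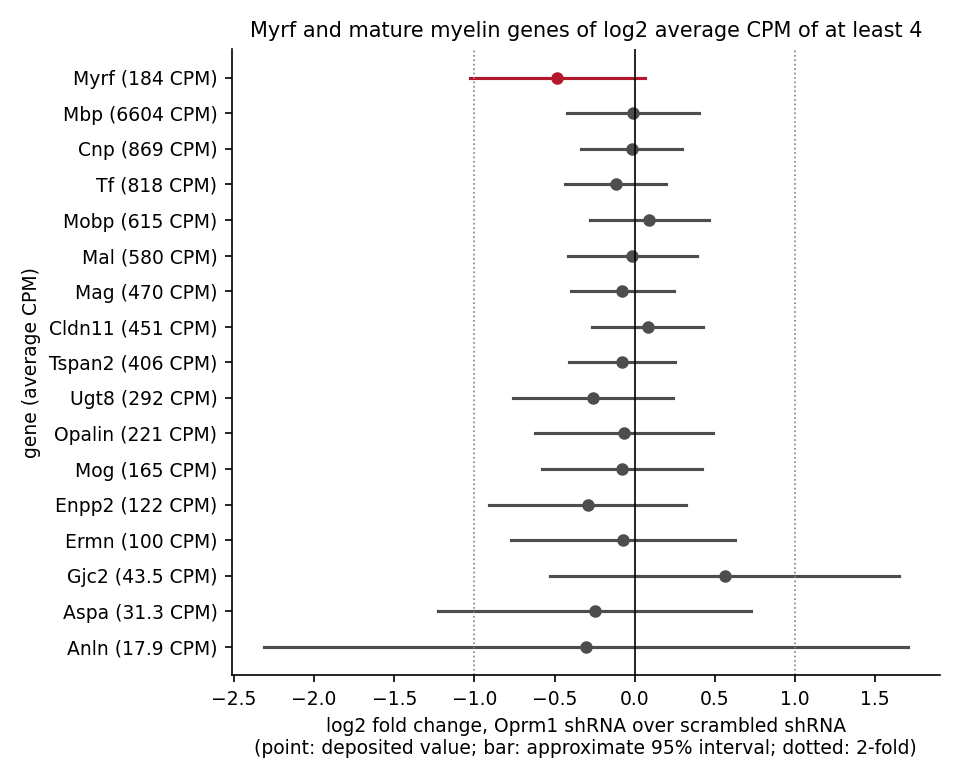
Log2 fold change, Oprm1 shRNA over scrambled shRNA, of Myrf (red) and of the 16 mature myelin genes that averaged a log2 CPM of 4 or more (grey, in falling order of average CPM), with approximate 95% intervals; dotted lines mark 2-fold. The point of Myrf lies furthest to the left, and every interval crosses 0.

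The rest of the lineage programme was read from 7 lists, the myelin genes among them, that held 122 measured genes beside the 7 described above, each counted once. These lists are not specific to the lineage. Fgfr3 and Sox9 also stand among the astrocyte markers read below, and P2ry12 among the microglial ones. In bulk tissue the values of such genes may come largely from other cells, and this was not tested. Of these 45 were higher and 77 lower, a share of 63.1% lower beside 51.6% over all genes, with a median of −0.12 on the log2 scale, and 0 passed the adjusted threshold in the authors' deposited table. At a log2 CPM of 4 or more, 50.8% of all genes were lower. There, 9 of 11 OPC surface and matrix genes, 5 of 8 growth factor and niche genes and 6 of 10 Notch-list genes were lower. So were 9 of 11 transcription and chromatin factors, 8 of 11 genes of committed and newly formed cells and 8 of 9 receptors. Astrocyte markers gave 10 of 11 lower and neuronal markers 6 of 12. Pericyte and mural cell markers gave 2 of 7 lower, fibroblast markers 1 of 4, microglial markers 3 of 6 and endothelial markers 4 of 8. With an unadjusted p under 0.05, 3 of the 122 lineage genes were higher, where all genes gave 1.49%, and 3 were lower, where all genes gave 2.9%. Together these are 4.92% of the 122, beside 4.39% of the whole table, and these shares are not matched for abundance. Over the whole table such a p was held by 12.2% of genes below a log2 CPM of 2. In the bands of log2 CPM from 4 upwards the share was between 1.82% and 5.63%. Of the 6 lineage genes, all but Susd5 averaged a log2 CPM of 4 or more.

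Of 15 measured OPC surface and matrix genes, 6 were higher, 9 were lower and 0 passed the adjusted threshold in the authors' deposited table, where their median log2 fold change was −0.17. Ptprz1, a receptor phosphatase of OPCs and astrocytes, had the smallest p of the list. It stood at −0.46 on the log2 scale and 347.0 CPM, with a fold interval of 0.596 to 0.886 (unadjusted p = 0.00157, adjusted p = 0.793), in the authors' deposited table. The next was Susd5, which the authors' deposited table lists at 1.21 CPM with a fitted log2 value of 8.48, a size that comes from almost no reads in a group, so no fold is given. The versican gene Vcan, a matrix proteoglycan gene picked with its values known, stood at −0.02 on the log2 scale in the authors' deposited table.

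Of 17 genes of growth factor and niche signals, 7 were higher, 10 were lower and 0 passed the adjusted threshold in the authors' deposited table, where their median log2 fold change was −0.17. Erbb3, a neuregulin receptor of the oligodendrocyte lineage and of Schwann cells, stood at 0.91 on the log2 scale and 82.5 CPM, with a fold interval of 1.19 to 2.96 (unadjusted p = 0.00657, adjusted p = 0.9997), in the authors' deposited table. Fgfr3, a fibroblast growth factor receptor of astrocytes and OPCs, stood at −0.56 on that scale (unadjusted p = 0.0634) in the authors' deposited table.

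A further list of 20 genes was built mainly from Notch, bone morphogenetic protein and Wnt signalling. It also holds genes outside these pathways, such as Lingo1 and Rtn4r, and its members may differ in their effect on differentiation. Of the 20 genes, 10 were higher, 10 were lower and 0 passed the adjusted threshold in the authors' deposited table. Their median log2 fold change there was −0.01. These counts therefore give no direction for differentiation. Lingo1, a membrane protein that restrains OPC differentiation, stood at 0.85 on the log2 scale and 75.3 CPM, with a fold interval of 1.11 to 2.93 (unadjusted p = 0.0164), in the authors' deposited table. The receptor gene Bmpr2 stood at −0.45 on that scale (unadjusted p = 0.127) in the authors' deposited table.

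Among 22 other transcription and chromatin factors of the lineage, 9 were higher, 13 were lower and 0 passed the adjusted threshold in the authors' deposited table, where their median log2 fold change was −0.11. Sox9, a glial factor, stood at 1.79 on the log2 scale (unadjusted p = 0.118) and Sox8, a close relative of Sox10, at −0.99 (unadjusted p = 0.135) in the authors' deposited table. Few reads stood behind Sox9, which averaged 9.77 CPM.

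Among 18 genes of committed and newly formed oligodendrocytes, the stage that Gpr17 marks, 6 were higher, 12 were lower and 0 passed the adjusted threshold in the authors' deposited table, where their median log2 fold change was −0.16. Enpp6, a choline phosphodiesterase of newly forming oligodendrocytes, stood at 1.51 on the log2 scale and 15.1 CPM, with a fold interval of 0.893 to 9.10 (unadjusted p = 0.0770), in the authors' deposited table. Enpp4, of the same enzyme family, stood at −0.83 on that scale (unadjusted p = 0.0238) in the authors' deposited table. This stage thus had genes that lay on both sides of 0. Among 13 receptors for nucleotides, glutamate and other transmitters found on the lineage, 3 were higher, 10 were lower and 0 passed the adjusted threshold in the authors' deposited table, where their median log2 fold change was −0.20. They were led by the AMPA receptor subunit gene Gria2 at −0.20 (unadjusted p = 0.106) and the histamine receptor gene Hrh3 at −0.92 (unadjusted p = 0.143), as log2 values of the authors' deposited table.

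**Figure D4:**
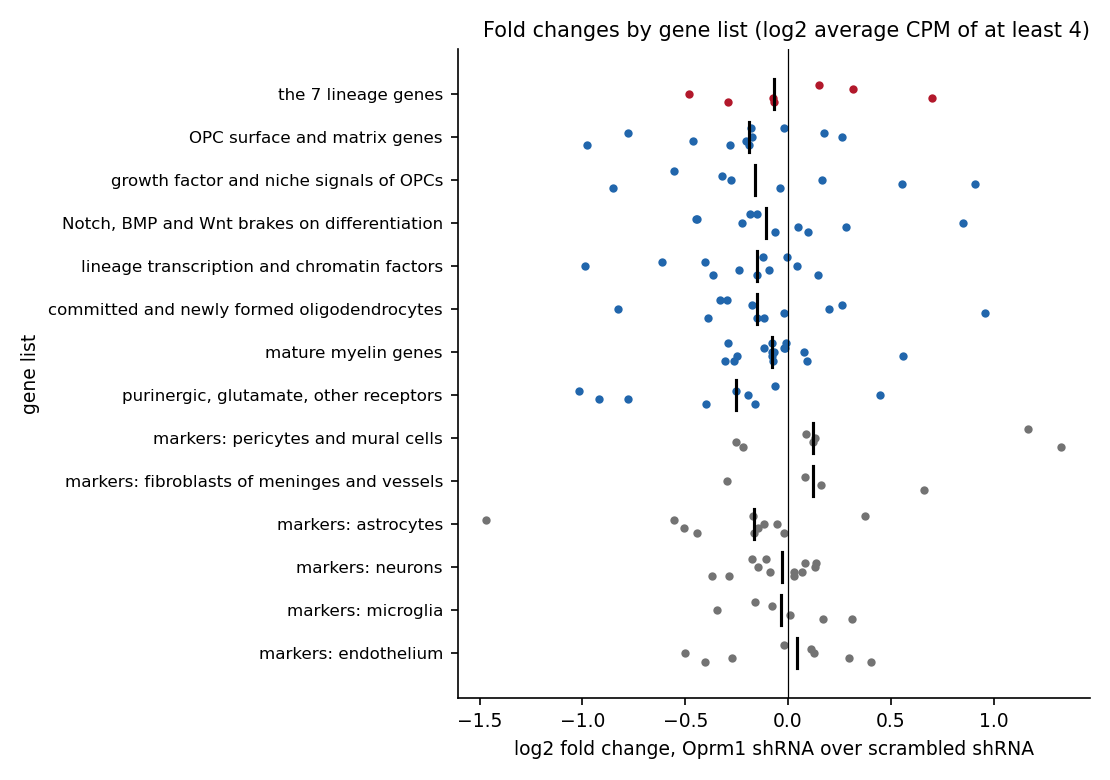
Log2 fold change, Oprm1 shRNA over scrambled shRNA, by list, of genes that averaged a log2 CPM of 4 or more: the 7 lineage genes (red), 7 further lineage lists (blue) and 6 lists of markers of other cell types (grey); each point is a gene and each black line a median. Points of every list fall on both sides of 0.

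Markers of other cells in the tissue were read beside the lineage genes. Of 13 astrocyte markers, 3 were higher and 10 lower with a median of −0.14 on the log2 scale in the authors' deposited table, led by the glutamate transporter gene Slc1a2 at −1.47 (unadjusted p = 0.0275) and the filament gene Gfap at 0.37 (unadjusted p = 0.0602). Of 12 neuronal markers, 6 were higher and 6 lower with a median of −0.03 on the log2 scale in the authors' deposited table, led by Map2 at −0.15 (unadjusted p = 0.00635) and Syt1 at −0.18 (unadjusted p = 0.0892). Of 12 microglial markers, 6 were higher and 6 lower with a median of 0.0046 on the log2 scale in the authors' deposited table, led by Trem2 at −2.64 (unadjusted p = 0.186) and the complement gene C1qa at 0.31 (unadjusted p = 0.391). Of 8 endothelial markers, 4 were higher and 4 lower with a median of 0.05 on the log2 scale in the authors' deposited table, led by Vwf at −0.50 (unadjusted p = 0.324) and Slco1a4 at −0.41 (unadjusted p = 0.424). No marker of these 4 lists (0) passed the adjusted threshold in the authors' deposited table. The part of a different cell make-up in the values of the 7 lineage genes was not tested.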

How the data were processed

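RNA of the dissected MPOA was sequenced from Illumina libraries, per the labels' protocols. Per the submitters' processing notes the tools were bcl2fastq 2.20, STAR 2.5.3a and RSEM, then edgeR 3.28.0, on the build Rnor_6.0. Annotation, filters, dispersion and covariates are not given in the sources used here. From edgeR the authors deposited 1 table with a log2 fold change, log2 average CPM, a likelihood ratio statistic (a score with no fixed range), a p-value and an adjusted p-value per gene. The deposited p-values are chi-square tail areas (degrees of freedom: 1) of that statistic, checked on all genes, and the adjusted ones imply 14859 tests. All were used as deposited, at an adjusted p under 0.05. The depth per sample is unknown, and counts were not analysed here.

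Implied standard errors and intervals were computed with Python 3.11.15, numpy 2.4.6 and scipy 1.17.1. They treat the statistic as a squared normal value and are poor for genes with few reads. The simulated data used to check the computation were normal values with a known error. Whether the intervals hold for the authors' fit was therefore not tested. RSEM shares reads between similar transcripts by estimation. CPM is not per length, so levels were not compared between genes.

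The 7 genes and the lists were chosen with earlier results of these data known. In each list the genes past the threshold, or else the 2 of smallest p, are named, and others are marked as picked with their values known. Of 131 further lineage symbols used, 9 had no row under that symbol. Beyond these 131, 1 gene of the lists was left out and is not reported here. The alternatives were other thresholds, adjustments redone over fewer genes, fold changes centred on medians and wider intervals.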

Additional observations from a re-analysis of the deposited data

How the results depend on the processing

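The count of 0 of 7 lineage genes past the threshold was 0 under each of the 6 alternatives tried for it. These were adjusted p under 0.1 or 0.01 and unadjusted p under 0.05. The others redid the adjustment over the table or over genes of log2 average CPM of at least 0 or 4. The smallest unadjusted p of the 7 by the authors' edgeR test was 0.0836, and an adjusted p cannot be smaller than the unadjusted one. The stricter limit and the redone adjustments therefore had to give 0 by construction. Centring the fold changes on the median of all genes, or of those with log2 CPM of at least 4, moved each of the 7 values by less than its distance from 0, so no direction could change by construction. For the further lineage genes the count of 0 was 6 at an unadjusted p under 0.05, a looser limit by construction. The 5 intervals inside 2-fold were 3 with Student's quantile, which widens them, and 0 with a limit of 1.5-fold. No paired analysis was possible because the deposited table holds no values per sample, and for the same reason no replicate could be left out.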
